A study of Mus musculus with 18 samples.

Results

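The comparison concerned mouse NIH3T3 fibroblasts that had received bovine serum albumin (BSA) by electroporation, and it set a line that carries a fusion of the red fluorescent protein mCherry and mouse TRIM21 (genotype mCherry-mTRIM21, called TRIM21 here) against the parental NIH3T3 line (called WT). The members were taken by their source label: the 3 samples whose source is Trim_21_BSA and the 3 whose source is wildtype_BSA, 6 of the 18 samples of the series. Both lines were given 7.5 µg of BSA per reaction with 2 pulses of 20 ms at 1400 V, and RNA was taken 16 h later. The other 12 samples were the same lines electroporated with PBS alone or with an antibody (IgG), so every sample of the series was electroporated and no untouched cells were compared. Titles carry the numbers 10, 11 and 14, each present once per group. The TRIM21 samples came from 1 derived line. The labels used here give neither the promoter of the fusion nor whether the line grew from a single cell, and an effect of the fusion cannot be told apart from any other difference between this line and its parent. Nothing states that the 3 samples of a group were separate cultures, so p-values measure the spread between these samples, which may be technical.

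TRIM21 is a cytosolic E3 ubiquitin ligase and an antibody receptor. Its PRYSPRY domain grips the constant part of an antibody that has reached the cytosol, its RING domain then builds ubiquitin chains with partner enzymes such as Ube2w and Ube2n, and the unfoldase p97 (Vcp) and the proteasome take the complex apart. The same ubiquitin chains can start NF-kB and interferon signalling. BSA has no antibody constant part and is not a ligand of TRIM21, so this comparison describes how the lines differ when a protein has been delivered that the receptor does not bind.

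Sequencing depth was similar on both sides. The TRIM21 samples held 22356584 to 29766433 reads assigned to genes and the WT samples 21706067 to 26521824. At that depth 3 reads, taken here as the smallest detectable count, correspond to 0.101 to 0.138 counts per 1e+06 gene counts (CPM). All 10 fibroblast markers examined, among them Col1a1, Vim and Lox, passed the filter on low counts, and none passed the test between the lines. Markers of other cell types were low: those of skeletal muscle summed to 0.567 to 0.894 CPM per sample, of endothelium to 0.866 to 1.52, of epithelium to 1.06 to 2.05, of blood cells to 12.3 to 15.8, of neurons and glia to 15.8 to 23.2 and of adipocytes to 20.2 to 29.0. Defining genes such as Myod1, Myog, Kdr, Cldn5, Krt5, Krt18, Cd3e, Sox10, Cebpa and Cd36 had no read in any of the 6 samples. Chondrocyte and osteoblast markers summed to 204 to 292 CPM, carried by Sox9 and Runx2, with Alpl and Ibsp at 0. Smooth muscle markers, mostly Acta2, summed to 1272 to 1462 CPM in the TRIM21 samples and to 1490 to 1819 in the WT samples, which do not overlap, although none of the 4 tested genes of the 6 listed passed by itself without a replicate block (Actg2 did with one, described later). The WT sample numbered 14 stood apart in 1 feature, the ribosomal RNA precursor Rn45s, with 245255 counts against 12196 to 24957 in the other 5 samples.

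Trim21 itself, which checks the labels, was the gene with the largest rise. Trim21 (chromosome 7, 102557921 to 102565486, minus strand, protein coding) had 25073, 22990 and 32225 counts in TRIM21 samples 10, 11 and 14, and 193, 142 and 223 in the matching WT samples. These are 996, 1028 and 1054 CPM against 8.41, 6.54 and 8.39 CPM. The groups were far apart, at 1026 ± 29.2 CPM against 7.78 ± 1.08 CPM (mean and SD of 3 samples per line). The log2 fold change was 7.04 (SE 0.166), with a Benjamini-Hochberg adjusted p of 3.48e-15 by edgeR's quasi-likelihood test. A two-sided exact permutation test over the 20 assignments of the 6 samples gave p = 0.1, the smallest value that 3 against 3 can reach. Per length, Trim21 ranked 134 from the top among the tested genes in the TRIM21 samples, with 276 CPM per kilobase of exon (RPKM), and 9140 in the WT samples, with 2.10 RPKM. Reads of the fusion and of the cells' own gene were counted together.

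The machinery that acts with TRIM21 did not differ detectably after BSA. None of 21 listed partners passed the threshold, and their median log2 fold change was -0.02, with Usp14, a deubiquitinase of the proteasome, the highest at 0.14. Of 32 proteasome subunits, none passed, with a median of -0.09 and a range from -0.34 (Psmb5, a catalytic subunit) to 0.09 (Psmd11). Of these 2 lists, 0 genes had an unadjusted p under 0.05 in the edgeR test, and DESeq2 and limma-voom also called 0. In 34 tested interferon response genes 1 was lower: Parp12, an interferon-induced ADP-ribosyltransferase, was at 0.715, 0.447 and 0.85 CPM in the TRIM21 samples and at 2.53, 1.89 and 1.88 CPM in the WT samples. Every TRIM21 value lay below every WT value, and the log2 fold change was -1.61 (SE 0.279, adjusted p = 0.00424). The median over all 34 interferon genes was -0.18, and Ifit2, the highest, was at 0.38 without passing (adjusted p = 0.422). Among 25 NF-kB targets and chemokines and 12 genes of MHC class I presentation none passed, with 2 genes each at an unadjusted p under 0.05, and DESeq2 called 0 and 1 of them.

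Across the transcriptome, 103 of 12140 tested genes (0.848%) differed between the lines after BSA with an adjusted p under 0.05, and these are called below. Falls outnumbered rises: 10 genes (0.0824%) were higher and 93 (0.766%) lower in the TRIM21 line, 7 and 70 of them by at least 2-fold. In all 103 the 3 TRIM21 values lay all above or all below the 3 WT values, as they did for 16.8% of all tested genes. The 3 number-matched pairs of such a gene move the same way by necessity, so the pairs add nothing to this. At an unadjusted p under 0.05 the directions were even, with 632 genes higher and 621 lower, and 5% of the tested genes is 607. Genes called lower were mostly expressed at a low level in the parental line. Their median WT level was 4.03 CPM against 31.7 CPM for all tested genes, and 68.8% of them were below 10 CPM in the WT samples against 25.7% of tested genes. By biotype, 96 of the 103 were protein coding. In these bulk samples, fewer cells that express a gene and less RNA per cell cannot be told apart. After BSA the sample numbers were taken to pair the 2 sides, because same-numbered samples deviated alike by the check described below. That check does not establish the pairing. A replicate block for the number, fitted over all 18 samples, raised the calls to 187 (1.54%), 31 higher (0.255%) and 156 lower (1.29%), all 103 among them. That block also covered the PBS and IgG samples, which the numbers did not pair by the check described below. Fitted to the 6 BSA samples alone, 104 of 11947 genes (0.871%) passed without the block, 23 higher and 81 lower, and 1126 (9.42%) with it, 499 higher and 627 lower, so the excess of falls was much smaller there. Without TRIM21 sample 10 or 14 or WT sample 14 the calls were 66, 67 and 67.

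**Figure D1:**
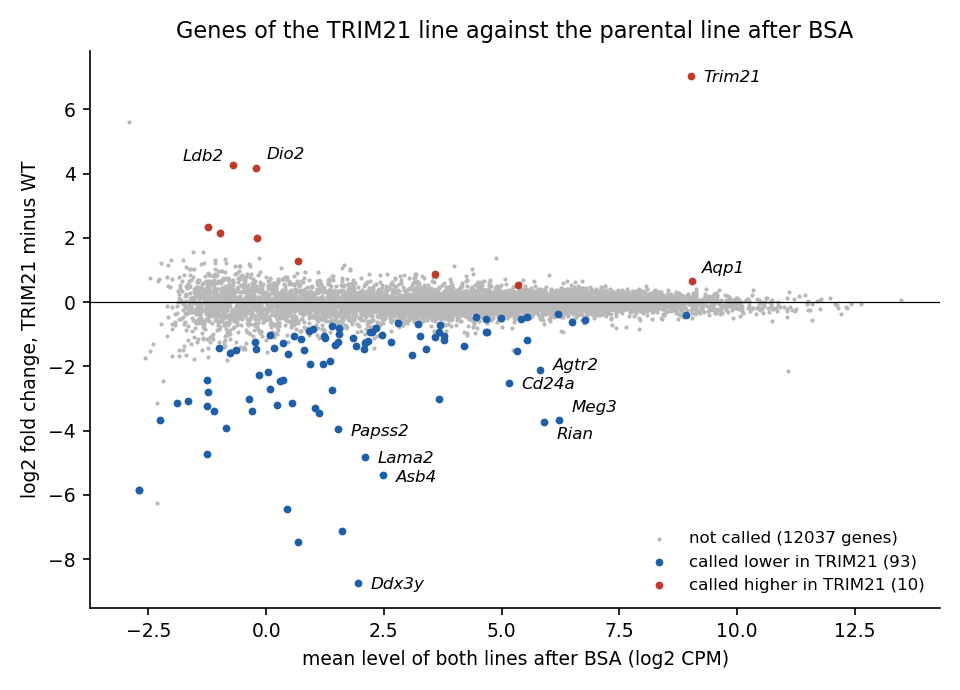
Each point is 1 of the 12140 tested genes, with its mean level over both lines after BSA on the x axis (log2 CPM) and its log2 fold change, TRIM21 minus WT, on the y axis. Blue points are the 93 genes called lower and red points the 10 called higher. Trim21 lies alone at 7.04, and most called genes lie below 0 in the left part of the plot.

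Besides Trim21, 9 genes rose, most of them from low levels. Ldb2 (chromosome 5, 44472132 to 44799680), a cofactor of LIM-domain transcription factors, was at 1.19, 1.07 and 1.24 CPM in the TRIM21 samples and at 0.0436, 0.0921 and 0.0376 CPM in the WT samples. The WT values came from 1, 2 and 1 reads, so the line went from below the detectable level to a low level in every sample. Its log2 fold change was 4.26 (SE 0.40, adjusted p = 4.52e-06). Dio2 (chromosome 12, 90724552 to 90738438), the deiodinase that turns thyroxine into its active form, was at 1.35, 1.97 and 1.6 CPM against 0.131, 0.046 and 0.0753 CPM, a log2 fold change of 4.19 (SE 0.458, adjusted p = 3e-05). It too moved from 1 to 3 reads per WT sample to 34 to 49 per TRIM21 sample, and the sizes of both rises are rough. Aim2, a cytosolic DNA sensor that starts an inflammasome, went up from 0.346 ± 0.0689 CPM in WT to 1.41 ± 0.344 CPM, a log2 fold change of 1.99 (SE 0.322, adjusted p = 0.00243).

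The remaining rises were smaller. Aqp1, a water channel of the plasma membrane, was the abundant gene among them, at 708, 553 and 660 CPM in the TRIM21 samples against 422, 388 and 412 CPM in the WT samples. The lowest TRIM21 value exceeded the highest WT value, with a log2 fold change of 0.65 (SE 0.11, adjusted p = 0.00328). Sorcs2, a sorting receptor of the VPS10 family, rose from 8.47 ± 0.484 to 15.4 ± 0.735 CPM, a log2 fold change of 0.86 (SE 0.137, adjusted p = 0.00198). Cd80, a costimulatory ligand for T cells, was at 2.5, 2.33 and 1.99 CPM against 1.35, 0.829 and 0.602 CPM, a log2 fold change of 1.30 (SE 0.253, adjusted p = 0.014). Plxna4, a semaphorin receptor, was at 50, 44.6 and 48.9 CPM against 31.1, 37.3 and 31.6 CPM, a log2 fold change of 0.52 (SE 0.119, adjusted p = 0.0469). The Cd80 call ended without TRIM21 sample 10 or WT sample 11 or 14 (adjusted p from 0.0687 to 0.125), and the Plxna4 call without any BSA sample except WT 11 (0.0647 to 0.285). Below 1 CPM, the receptor tyrosine kinase Alk rose from 0.141 to 0.711 CPM (log2 fold change 2.33, adjusted p = 0.0325) and the pseudogene Spn-ps from 0.179 to 0.832 CPM (2.16, adjusted p = 0.0115). The Alk call ended without TRIM21 sample 14 or any WT sample (0.0635 to 0.234), and the Spn-ps call without TRIM21 sample 10 or WT sample 10 or 11 (0.0509 to 0.0834).

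Among the falls, 4 Y-linked genes came first. Ddx3y, an RNA helicase, had 0, 1 and 0 counts in the TRIM21 samples and 136, 185 and 231 in the WT samples, a ratio of pooled counts scaled to depth of 605 (exact 95% interval 108 to 23958, counting error only). Kdm5d, a histone demethylase, had 0, 0 and 1 against 67, 69 and 91 counts, a ratio of 249 (44.2 to 9877). Eif2s3y, a subunit of the translation initiation factor that brings the first tRNA, had 2, 0 and 1 against 143, 137 and 149 counts, a ratio of 157 (53.3 to 764). Uty, a relative of the histone demethylase Kdm6a, had 0, 0 and 2 against 65, 59 and 67 counts, a ratio of 105 (28.6 to 871). In every TRIM21 sample all 4 genes were thus below the 3 counts taken as detectable, and in every WT sample all 4 were well above it. Their adjusted p-values ran from 2.88e-09 to 2.23e-07, and these were the 4 tested genes of the Y chromosome.

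The X-linked relatives of these genes (Ddx3x, Kdm5c, Eif2s3x and Kdm6a) were expressed in both lines. With them were tested Zfx, Usp9x and Uba1, relatives of Y-linked genes that were not tested, and Xist. None of these 8 X-linked genes passed, with log2 fold changes from 0.10 (Kdm5c) to 0.51 (Usp9x). Ddx3x was at 377, 412 and 371 CPM in the TRIM21 samples and at 321, 368 and 333 CPM in the WT samples, a log2 fold change of 0.18 (SE 0.119, adjusted p = 0.637). In a fit with the replicate block on the 6 BSA samples alone, Usp9x (0.49, adjusted p = 0.0109) and Eif2s3x (0.33, adjusted p = 0.0178) passed. Xist, the RNA that coats an inactive X chromosome, had 8 to 14 counts per TRIM21 sample and 6 to 13 per WT sample.

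**Figure D2:**
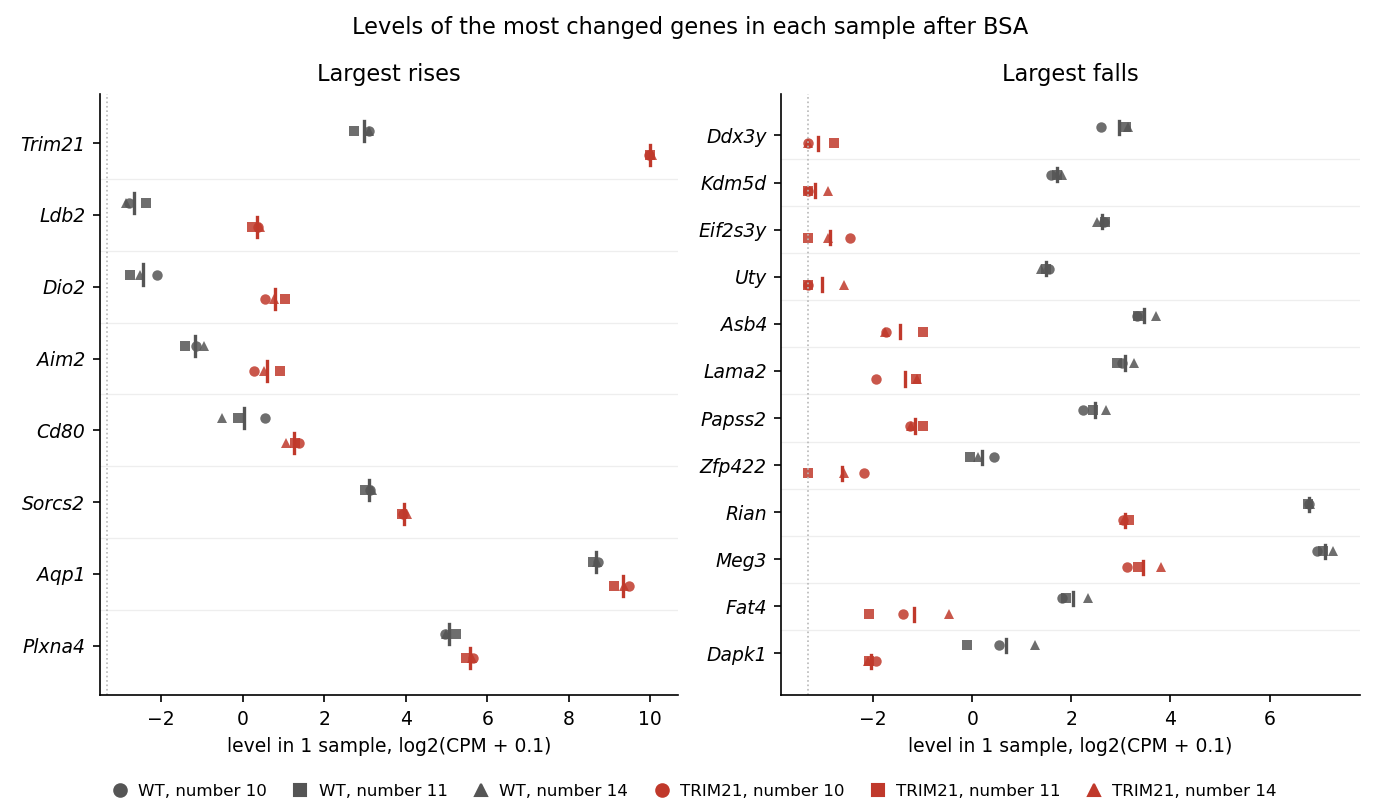
Levels in single samples, as log2(CPM + 0.1), for the called genes with the largest rises (left) and falls (right) among genes reaching a group mean of 1 CPM. Grey symbols are WT and red symbols TRIM21 samples, the shapes give the sample number, short bars mark the group means and the dotted line marks 0 CPM. The groups do not overlap for any gene shown, and Ddx3y, Kdm5d, Eif2s3y, Uty and Zfp422 have TRIM21 samples on the dotted line.

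Imprinted genes, which are expressed from either the maternal or the paternal copy alone, held the largest number of calls of any list. Of 22 tested, 6 were lower (against 0.766% of all tested genes), none was higher, and the list's median log2 fold change was -0.17 against -0.0044 for all tested genes. The noncoding RNAs Meg3 and Rian, transcribed from the maternal copy of the Dlk1-Dio3 region of chromosome 12, were among them. Rian (109603940 to 109661716, plus strand) was at 8.10, 8.81 and 8.21 CPM in the TRIM21 samples and at 111, 109 and 112 CPM in the WT samples. The samples within a line barely differed, and the WT level was 13.2-fold higher (log2 fold change -3.73, SE 0.155, adjusted p = 3.6e-11). Meg3 (109541001 to 109571726, plus strand) was at 8.66, 10.1 and 13.8 CPM against 124, 136 and 156 CPM, 12.7-fold higher in WT (log2 fold change -3.67, SE 0.209, adjusted p = 3.67e-09). Farther along, Mirg (109729764 to 109749460), another noncoding RNA of the region, fell less, from 33.8 ± 4.78 to 17.6 ± 1.08 CPM (-0.94, SE 0.163, adjusted p = 0.00416).

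Other transcripts of the region were examined because of their position, after their values had been seen. AF357359, a small RNA gene inside Rian, fell from 2.13 ± 0.258 to 0.218 ± 0.12 CPM (-3.19, adjusted p = 0.000459), but its reads cannot be separated from those of its host with certainty. The transcript 6430411K18Rik, which lies within the span of Rtl1 between Meg3 and Rian, fell from 0.494 ± 0.0374 to 0.0476 ± 0.0491 CPM (-3.14, adjusted p = 0.0383), and its reads may likewise be shared with Rtl1. The paternally expressed genes of the same region did not pass. Dlk1, a Notch-related membrane protein, was at 1341, 1226 and 1549 CPM in the TRIM21 samples and at 1961, 1745 and 2505 CPM in the WT samples, lower in every TRIM21 sample but short of the threshold (-0.59, SE 0.187, adjusted p = 0.238). Rtl1, a retrotransposon-derived gene, was at 5 to 5.69 against 5.34 to 9.56 CPM (-0.46, adjusted p = 0.509). Dio3 had 1 read in the 6 samples.

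Outside that region, Asb4, an adaptor of a ubiquitin ligase (chromosome 6, 5383386 to 5433022), was at 0.199, 0.402 and 0.196 CPM in the TRIM21 samples and at 9.94, 10.0 and 12.9 CPM in the WT samples. It was 41.8-fold higher in WT, the largest fall outside the Y chromosome among genes reaching 1 CPM (-5.39, SE 0.318, adjusted p = 5.37e-09). Its neighbour in the list, Ppp1r9a, was at 0.469 against 0.521 CPM and did not pass (-0.19, adjusted p = 0.911). H19, a maternally expressed noncoding RNA, was at 1.75, 3 and 3.73 CPM against 21.4, 15.6 and 31.2 CPM, 8-fold higher in WT (-3, SE 0.371, adjusted p = 0.000137). Ndn, a paternally expressed MAGE family gene, fell from 33.2 ± 3.40 to 17.5 ± 1.00 CPM (-0.93, SE 0.116, adjusted p = 0.000151). Ndn and Mirg passed but lay beyond the 4 genes per list that the naming rule takes, and were named after their values were seen.

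Igf2, the growth factor gene next to H19, shows what the block by sample number did. It was at 91.3, 174 and 254 CPM in TRIM21 samples 10, 11 and 14, and at 209, 288 and 434 CPM in WT samples 10, 11 and 14. The level differed between the numbers in the same order in both lines, so the groups overlapped while each pair differed the same way. Without the block the difference did not pass (-0.84, SE 0.385, adjusted p = 0.456), and with the replicate block it did (-0.89, SE 0.0978, adjusted p = 3.99e-05), which made 7 imprinted genes lower. The abundant imprinted genes Grb10 (1090 against 1077 CPM) and Gnas (843 against 918 CPM) were close in the 2 lines (log2 fold changes 0.02 and -0.12, adjusted p = 0.971 and 0.789).

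**Figure D3:**
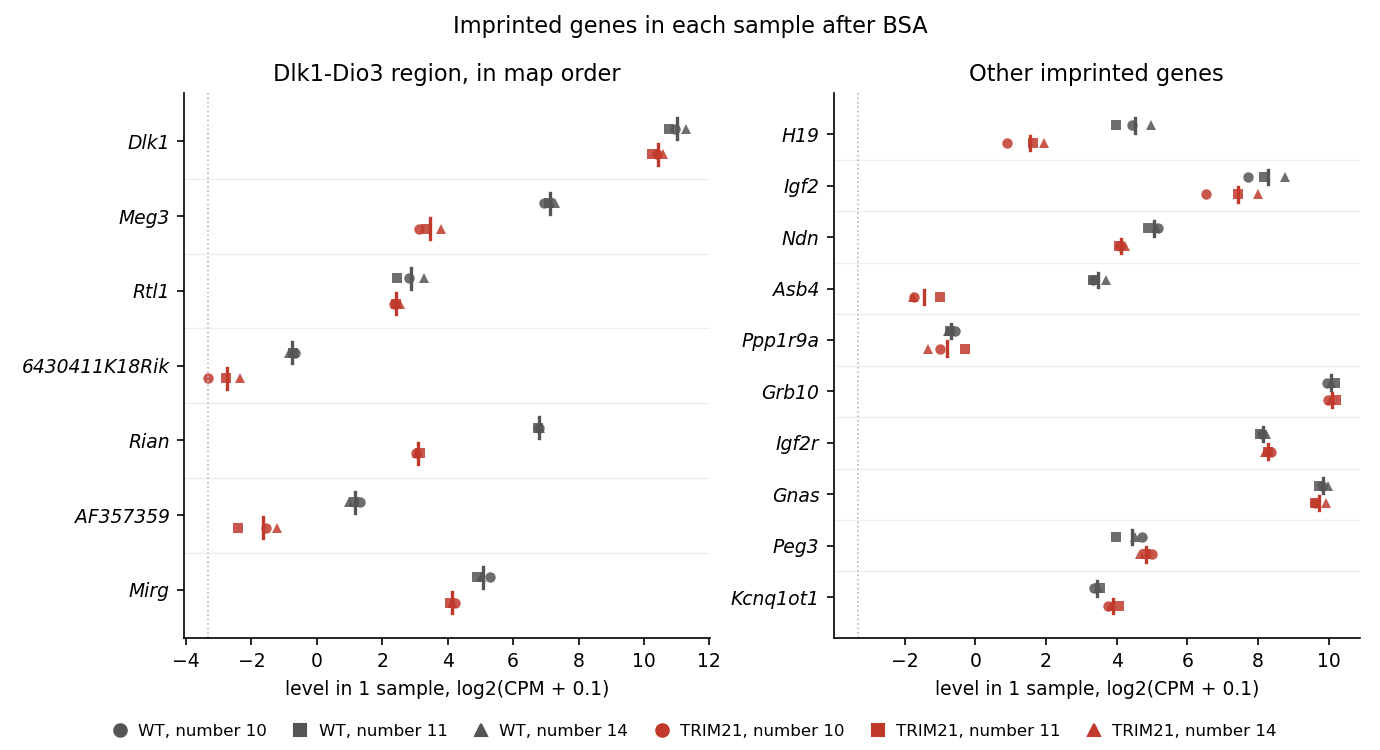
Levels in single samples after BSA, as log2(CPM + 0.1), of genes of the Dlk1-Dio3 region in map order (left) and of 10 other imprinted genes (right). Grey is WT, red is TRIM21, shapes give the sample number, bars mark group means and the dotted line marks 0 CPM. Meg3, Rian and the 2 short transcripts lie well to the left of their WT values, Dlk1 and Rtl1 lie close to theirs, and Igf2 shows the same order of sample numbers in both lines.

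The start regions of 5 of the most changed genes are printed for their content of CG, the dinucleotide that carries DNA methylation and marks the silent copy at many imprinted loci. The sequences are from RefSeq on GRCm38.p6, 250 bases before to 50 after a transcript start, 5′ to 3′ on the gene's strand, with each CG in capitals; CG reads the same on both strands. RefSeq gives a further start for Meg3, Asb4 and Papss2, with windows of 1, 8 and 1 CG, and its window for Rian holds 0 CG. The gene spans in this text are from GENCODE. Against them the Lama2 window lies inside its span, and the Dio2 and Papss2 windows lie wholly upstream of theirs.
Meg3 (chr12:109540746-109541045, plus strand): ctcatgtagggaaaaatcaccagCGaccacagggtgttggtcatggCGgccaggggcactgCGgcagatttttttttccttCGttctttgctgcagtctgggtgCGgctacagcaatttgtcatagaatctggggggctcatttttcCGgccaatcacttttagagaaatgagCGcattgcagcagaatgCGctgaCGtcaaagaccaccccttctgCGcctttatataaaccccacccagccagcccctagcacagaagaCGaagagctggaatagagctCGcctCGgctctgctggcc
Asb4 (chr6:5383136-5383435, plus strand): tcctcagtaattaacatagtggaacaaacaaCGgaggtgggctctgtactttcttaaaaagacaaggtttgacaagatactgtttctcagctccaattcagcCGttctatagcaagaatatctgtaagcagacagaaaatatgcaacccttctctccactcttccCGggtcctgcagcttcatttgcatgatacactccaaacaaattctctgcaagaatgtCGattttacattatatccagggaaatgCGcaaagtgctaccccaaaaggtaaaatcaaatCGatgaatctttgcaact
Lama2 (chr10:27616893-27617192, minus strand): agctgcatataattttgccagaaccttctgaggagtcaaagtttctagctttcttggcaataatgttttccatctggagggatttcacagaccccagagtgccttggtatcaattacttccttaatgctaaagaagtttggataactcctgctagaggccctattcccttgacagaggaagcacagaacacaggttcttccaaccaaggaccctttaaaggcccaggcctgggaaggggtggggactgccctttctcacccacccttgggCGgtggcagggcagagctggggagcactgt
Papss2 (chr19:32595465-32595764, plus strand): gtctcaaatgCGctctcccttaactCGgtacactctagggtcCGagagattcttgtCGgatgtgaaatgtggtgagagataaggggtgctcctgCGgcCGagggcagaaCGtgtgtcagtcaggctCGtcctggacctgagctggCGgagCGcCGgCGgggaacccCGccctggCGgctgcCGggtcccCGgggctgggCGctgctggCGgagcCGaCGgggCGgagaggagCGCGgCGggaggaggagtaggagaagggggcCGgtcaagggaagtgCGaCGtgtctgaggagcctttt
Dio2 (chr12:90738989-90739288, minus strand): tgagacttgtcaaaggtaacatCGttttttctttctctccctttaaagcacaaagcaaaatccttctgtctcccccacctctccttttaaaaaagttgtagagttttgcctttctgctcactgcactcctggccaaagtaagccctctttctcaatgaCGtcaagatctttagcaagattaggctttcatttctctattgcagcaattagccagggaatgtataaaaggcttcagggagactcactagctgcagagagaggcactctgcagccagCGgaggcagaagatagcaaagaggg
The windows of Papss2, Meg3, Asb4, Dio2 and Lama2 hold 27, 13, 6, 3 and 1 CG. Among tested genes with a window in the table, 35.6%, 81.0%, 93.1%, 97.6% and 99.6% hold at least as many. These are 5 genes picked for the size of their change, and the counts describe letters in these windows, and methylation was not measured.

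In the lists of matrix genes and of proteoglycan synthesis, 1 or 2 of 20 to 32 tested genes per list were called, all lower, against 0.848% of all tested genes. Lama2 (chromosome 10, 26980036 to 27619758), the laminin chain that links muscle and nerve cells to their basement membrane, was at 0.159, 0.358 and 0.36 CPM in the TRIM21 samples and at 8.02, 7.51 and 9.48 CPM in the WT samples. It was 27.9-fold higher in WT in a gene with 163 to 252 reads per WT sample (-4.80, SE 0.336, adjusted p = 5.97e-08). Papss2 (chromosome 19, 32595790 to 32667187), which makes the sulfate donor used to sulfate proteoglycans, was at 0.318, 0.402 and 0.327 CPM against 4.62, 5.30 and 6.44 CPM, 15.5-fold higher in WT (-3.96, SE 0.278, adjusted p = 5.97e-08). In the same list of 32 tested genes of sulfate activation and proteoglycan synthesis, the extracellular sulfatase Sulf1 fell from 2.45 ± 0.205 to 1.32 ± 0.258 CPM (-0.90, SE 0.194, adjusted p = 0.0325), and 30 genes did not pass. The Sulf1 call ended without BSA sample 10 or 14 of either line (adjusted p from 0.113 to 0.173).

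Further matrix genes fell from low levels. Col11a1, a fibrillar collagen, was the 1 called of 20 tested collagens, at 1.55, 1.65 and 1.5 CPM against 3.40, 3.73 and 4.67 CPM (-1.33, SE 0.218, adjusted p = 0.00265). Col1a1, the main chain of type I collagen, was at 2240, 2029 and 3215 CPM in the TRIM21 samples and at 3295, 2711 and 5019 CPM in the WT samples (-0.56, adjusted p = 0.518). The groups overlapped, while the TRIM21 value was the lower in each of the 3 pairs. With the block Col1a1 did not pass (0.273), and with the block on the BSA samples alone it did (0.000822). In that last fit 9 of the 20 collagens were called lower, against 627 of all 11947 tested genes. Serpine2, an inhibitor of thrombin and plasminogen activators and the 1 called of 31 matrix proteases and inhibitors, was at 0.715, 1.07 and 1.11 CPM against 3.44, 3.13 and 4.4 CPM (-1.92, SE 0.269, adjusted p = 0.000571). Lum, a small leucine-rich proteoglycan, fell from 2.09 ± 0.294 to 0.374 ± 0.227 CPM (-2.44, SE 0.542, adjusted p = 0.0383), and Mfap4, a microfibril protein, from 2.14, 0.921 and 3.5 to 0.238, 0.358 and 0.589 CPM (-2.44, SE 0.543, adjusted p = 0.0383). The Lum call ended without any 1 of the 6 samples (adjusted p from 0.0772 to 0.193) and the Mfap4 call without any of them except WT 11 (0.0868 to 0.286), while with the replicate block both passed (0.00286 and 8.33e-05). Mfap4 overlaps Mapk7 on the other strand, and Mapk7 did not differ (-0.10, adjusted p = 0.867). With the block, the basement membrane and matricellular list of 28 tested genes went from 2 to 5 called: periostin (Postn) at 54.3 against 100.2 CPM (adjusted p = 0.00489 with the block, 0.481 without), asporin (Aspn) at 19.9 against 56.3 CPM (0.0207, 0.133) and nephronectin (Npnt) at 16.2 against 28.3 CPM (0.0227, 0.304) joined Lama2 and Lum.

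Genes of growth factor and Wnt signalling were lower in small numbers. Among 30 tested growth factor receptors, Egfr was at 2.06, 3.17 and 2.88 CPM in the TRIM21 samples and at 6.06, 5.53 and 7 CPM in the WT samples (-1.20, SE 0.202, adjusted p = 0.00337), the ephrin receptor Epha7 had 2, 0 and 0 counts against 6, 10 and 12 (pooled ratio 15.4, exact 95% interval 3.87 to 133), and Alk was higher, as above. The Epha7 call ended without BSA sample 11 or 14 of either line (adjusted p from 0.0579 to 0.126). Gas6, the ligand of the Axl family of receptors and the 1 called of 28 growth factors and binding proteins, was at 0.953, 0.402 and 0.687 CPM against 5.23, 2.76 and 5.72 CPM (-2.73, SE 0.32, adjusted p = 7.87e-05). With the block, Igf2 and pleiotrophin (Ptn, 147 against 250.4 CPM, adjusted p = 0.0123 with the block and 0.231 without) joined it. Of 23 tested Wnt pathway genes, both called were secreted antagonists. Sfrp2 was at 0.238, 0.358 and 0.294 CPM against 1.57, 2.39 and 3.91 CPM (-3.14, SE 0.441, adjusted p = 0.000571). Sfrp1 had 1, 4 and 5 counts against 13, 18 and 20 (-2.44, SE 0.515, adjusted p = 0.0274), and its call ended without any BSA sample except WT 10 (adjusted p from 0.0616 to 0.154). The receptor Lrp4 and the secreted Dkk3 passed with the block (-0.69 and -0.45, adjusted p = 0.0474 and 0.0337) and not without it (0.107 and 0.11).

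Single genes fell in lists of cell shape, adhesion and guidance. Myl9, the regulatory light chain of nonmuscle and smooth muscle myosin, was at 30.9, 25.4 and 29.6 CPM in the TRIM21 samples and at 64.6, 64.8 and 64.8 CPM in the WT samples. The WT samples were almost equal and the TRIM21 samples all at or below 30.9 CPM (-1.18, SE 0.128, adjusted p = 2.88e-05). It was the 1 called of 27 contractile genes and YAP targets, whose median was 0.01; Actg2 joined it with the block (-0.94, adjusted p = 0.00491). The summed smooth muscle markers given above were also lower in the TRIM21 samples, and their part in this result was not tested. Fat4, a giant cadherin, was at 0.278, 0.134 and 0.621 CPM against 3.40, 3.59 and 4.97 CPM (-3.44, SE 0.342, adjusted p = 1.01e-05). Ntn1, a guidance cue, was at 2.26, 2.10 and 3.17 CPM against 6.32, 5.02 and 6.85 CPM (-1.26, SE 0.185, adjusted p = 0.000923). Stra6, the cell's retinol importer, fell from 1.82 ± 0.216 to 0.752 ± 0.123 CPM (-1.28, SE 0.262, adjusted p = 0.0214), a call that ended without BSA sample 10 of either line, TRIM21 sample 14 or WT sample 11 (0.059 to 0.14). Dio2 rose in the same list of 12 tested thyroid hormone and retinoid genes.

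Falls in genes of no list completed the set of largest changes. Dapk1, a death-associated kinase, was at 0.159, 0.134 and 0.131 CPM against 1.35, 0.829 and 2.30 CPM (-3.38, SE 0.496, adjusted p = 0.000923). Zfp422, a zinc finger gene, had 3, 0 and 2 counts against 29, 19 and 26 (-3.91, SE 0.416, adjusted p = 2.44e-05). Among genes below 1 CPM, Ercc6l2, a helicase of DNA repair, had no read in the TRIM21 samples and 6 to 8 in each WT sample, which makes it at least 2.64-fold lower against a floor of 3 counts per library (adjusted p = 0.0112). Its call ended without TRIM21 sample 14 (adjusted p = 0.0634). Jph1, a junctophilin, had no read against 5 to 9, at least 2.63-fold lower (adjusted p = 0.00373). Rnpepl1, an aminopeptidase relative, had 1, 1 and 0 counts against 15, 15 and 29, a pooled ratio of 32.4 (exact 95% interval 8.57 to 273).

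Over the 32 lists together, 722 of the 920 genes in the tables were tested, 30 were called (4.16%, against 0.848% of all tested genes), 3 higher and 27 lower, and the median log2 fold change of the tested list genes was -0.07. The lists were chosen with earlier results of these data known, so this share is a description. With the replicate block 46 passed. In 17 lists with 367 tested genes none was called by edgeR. Of these genes 40 had an unadjusted p under 0.05, and DESeq2 called 5, limma-voom 0 and the block 7. Over all 12140 tested genes the same counts were 1253, 164, 102 and 187, so the 40, 5 and 7 were close to the general shares. Those lists included heat shock chaperones (20 tested, median -0.01), the unfolded protein response (23, median -0.12), oxidative stress genes (19, median -0.11), immediate early factors (23, median -0.15), cell cycle and replication (32, median 0.07), p53 targets (16, median 0.03), sterol and fatty acid synthesis (26, median -0.08) and glycolysis and hypoxia (24, median -0.15). Gstm1, a glutathione transferase, came nearest among the stress genes at 103 against 146 CPM (-0.50, adjusted p = 0.0582, and 0.00548 with the block).

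**Figure D4:**
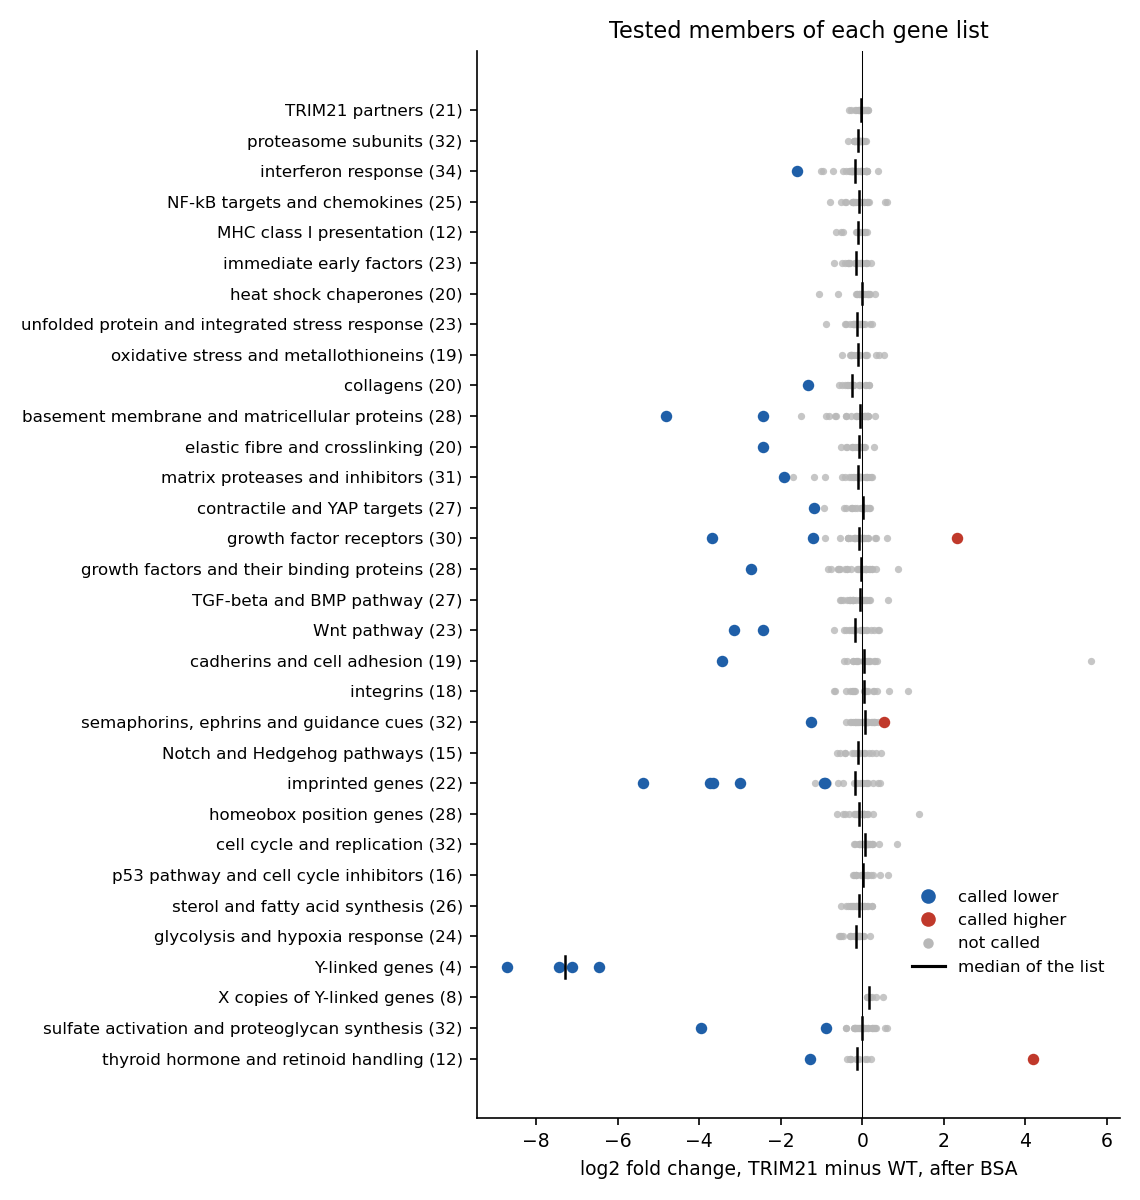
Each dot is a tested gene at its log2 fold change, TRIM21 minus WT, after BSA, in the row of its list, with the number tested in brackets. Blue dots are called lower, red dots called higher, grey dots not called, and black bars are list medians. Medians lie near 0 except for the Y-linked genes at -7.28, and the called genes lie below 0 except for Alk, Dio2 and Plxna4.

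By position, the called genes were spread over the chromosomes. Chromosome medians of the log2 fold change lay between -0.0957 (chromosome 10) and 0.0709 (chromosome 18), apart from the Y chromosome at -7.28. Of the 103 genes, 17 (16.5%) had another called gene within 1 Mb, against 10.4% of all tested genes with a called gene that near. They were the 4 Y-linked genes, the 5 transcripts of the Dlk1-Dio3 region, and 4 pairs. The adjoining membrane protein genes Tmem176a and Tmem176b fell together, from 1.63 ± 0.0253 to 0.617 ± 0.166 CPM and from 3.89 ± 0.0618 to 1.95 ± 0.252 CPM (-1.41 and -0.99, adjusted p = 0.0495 and 0.0188).

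The same lines after PBS or IgG, in samples that the BSA contrast does not contain, showed most of these differences again in the joint fit of all samples. Those samples did enter the same fit and shared its filter and estimate of spread, so the lists of calls are not fully separate. With only the compared groups fitted, a minority of the BSA calls were shared with PBS, as given in the section on processing. After PBS 208 genes differed (1.71%) and after IgG 94 (0.774%). Of the 103 genes called after BSA, 86 were also called in the same direction after PBS, which is 83.5% of the BSA calls and 41.3% of the PBS calls. After IgG 77 were, 74.8% of the BSA calls and 81.9% of the IgG calls. In both, 74 were called. All 103 had the same sign, a count given without the share over all tested genes, so it describes these genes only. Rian was at 8.37 against 111 CPM after BSA, at 6.71 against 140 CPM after PBS and at 7.25 against 110 CPM after IgG. Lama2 changed by -4.80 after BSA, -5.30 after PBS and -4.59 after IgG, and Dio2 by 4.19, 3.45 and 3.97, on the log2 scale.

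Whether the line difference after BSA differed from that after PBS or IgG was tested gene by gene as an interaction. By edgeR 0 genes passed against PBS (0.0%) and 0 against IgG (0.0%), with 790 and 482 genes at an unadjusted p under 0.05 and smallest adjusted p-values of 0.651 and 0.843. DESeq2, limma-voom and the edgeR fit with the replicate block also called 0 in both. With the block and only the samples of the 4 groups, 6 genes passed against IgG. The smallest p against PBS was that of Itgb1bp2, a chaperone-like protein that binds integrin, with a line difference of 1.12 after BSA and -0.83 after PBS on the log2 scale (unadjusted p = 0.00022). Against IgG it was that of Nhlrc3, with 0.64 after BSA and -0.37 after IgG (unadjusted p = 0.000429). In the line comparison after BSA, Itgb1bp2 and Nhlrc3 had adjusted p = 0.11 and 0.0991, with the replicate block 0.064 and 0.0718, and with the block on the BSA samples alone 0.0358 and 0.0233. DESeq2 called Nhlrc3 (0.0393) and not Itgb1bp2 (0.16).

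There were 14 genes called after BSA and in neither other delivery: Acsl6, Adamts9, Aif1l, Alk, Cd80, Cgnl1, Mfap4, Npc2, Nxn, Plxna4, Stard10, Tspan33, Wdr31 and Zfp870. All 14 had the same sign after PBS and IgG, and none passed an interaction test, so a difference between deliveries was not shown for them. Cd80, at 1.30 after BSA, was at 0.50 after PBS (adjusted p = 0.273) and 0.98 after IgG (adjusted p = 0.0913). Npc2, the most abundant of the 14 and a lysosomal carrier of cholesterol, was at 410, 439 and 401 CPM in the TRIM21 samples after BSA against 586, 512 and 538 CPM (-0.39, SE 0.0828, adjusted p = 0.0298). Its log2 fold changes after PBS and IgG were -0.25 and -0.33 (adjusted p = 0.137 and 0.0909).

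**Figure D5:**
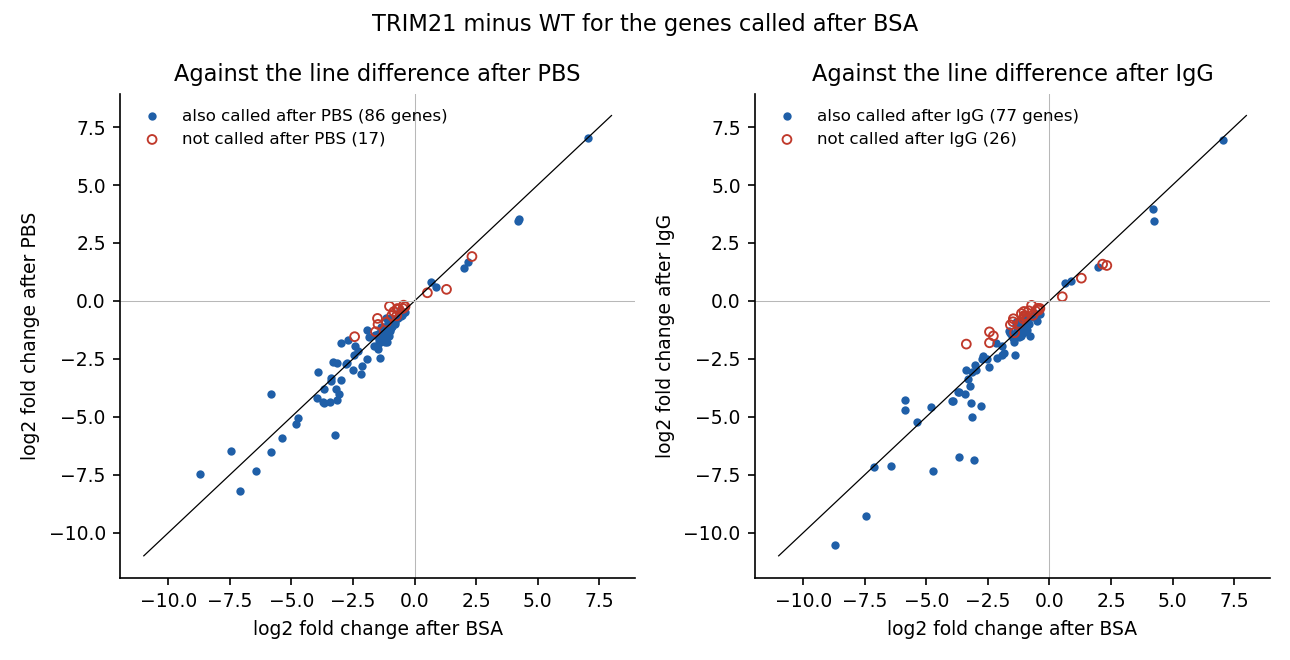
Log2 fold change, TRIM21 minus WT, of the 103 genes called after BSA (x axis) against the same line difference after PBS (left) or IgG (right, y axes). Filled blue points were also called in the other delivery, 86 after PBS and 77 after IgG, open red points were not, and the diagonal marks equal values. All points lie below 0 on both axes or above 0 on both.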

How the data were processed

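RNA of 18 samples (2 lines, 3 deliveries, 3 samples each) was sequenced from strand-specific, polyA-enriched libraries, per the labels' protocols. The authors deposited raw read counts per gene symbol, 1 table per sample. Per the submitters' processing notes the tools were bcl2fastq 2.19.1.403, FastQC 0.11.5, STAR 2.5.1b, HTSeq 0.6.0 and DESeq2 1.6.3, and the build was mm10; the counting strand option and annotation are not given in the sources used here. Reads given to no gene, 13.1% to 18.3% of the counted reads in the BSA samples, stayed out of library sizes.

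The statistics used edgeR 4.0.16 (R 4.3.3). filterByExpr (minimum count 10, minimum total 15) kept 12140 of 24062 genes. Library sizes were scaled by TMM, also for CPM. All 18 samples entered 1 quasi-likelihood fit with a mean for each of the 6 groups, and p-values were adjusted by Benjamini-Hochberg over all tested genes, with a threshold of 0.05. Every adjusted p in the text is from this test unless another fit is named. SE values follow from the F statistic. The procedure was tested on simulated data. BSA libraries of the same line differed beyond counting noise (chi-square divided by its degrees of freedom 24.5 to 44.9). Each was counted as its own sample, although such a difference does not show that they were separate cultures.

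The title numbers were checked as pairs by the correlation, across genes, of the deviations from group means. It was 0.324, 0.289 and 0.445 for BSA samples numbered 10, 11 and 14. For every unequal pair it was below 0. Deviations within a group sum to 0, so positive equal pairs push the unequal ones down, and these add no separate support. After PBS it was 0.0307, 0.17 and -0.0286 and after IgG 0.41, -0.016 and 0.0036, so there the numbers did not pair the samples by this check. Unequal numbers reached 0.395 after PBS (TRIM21 10 with WT 14) and 0.341 after IgG (TRIM21 14 with WT 11). Values in the range of those after BSA thus also occurred without a shared number, and the pairing after BSA remains an assumption. Blocked values are therefore given where they change a result. The comparison, whose members follow from the source labels, and the gene lists were chosen with earlier results of these data known. Named were Trim21, the 12 largest rises and falls among called genes reaching 1 CPM, the 4 largest of each below that, and up to 4 called genes per list. Y-linked genes with their X copies and Xist were also named, as were the smallest p of each interaction and the 3 genes with most counts. The latter were Eef1a1, Vim and Lox, which did not differ (log2 fold changes 0.07, -0.05 and -0.05). Positions are from GENCODE M21 (GRCm38) by symbol, with 22758 direct matches, 916 by older symbol, 219 by RefSeq and 169 unmatched. Alternatives used DESeq2 1.42.0 and limma 3.58.1; the omission of the TRIM21 PBS sample numbered 11 was added after seeing the data.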

Additional observations from a re-analysis of the deposited data

How the results depend on the processing

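The number of calls depended on the processing. In all fits the genes called after BSA kept their sign wherever they were tested. The TRIM21 and WT values of all 103 did not overlap, so other fits of the same counts could hardly reverse a sign. The count of 103 was 107 with DESeq2 size factors, 103 without a filter, 102 with limma-voom, 118 with a GC-content offset and 104 with only the BSA samples, of which 23 were higher and 37 shared with PBS. It was 164 by the DESeq2 Wald test, 31 of them higher. With at least 10 counts in each BSA sample it was 49 (4 higher, 45 lower, 13 listed genes, 42 shared with PBS and 42 with IgG); fewer genes were tested there. With the replicate block, paired by title number, it was 187 (31 higher, 156 lower), with 46 listed genes, 149 calls shared with PBS and 124 with IgG, and Trim21 at 7.04; the block ended no call made without it. With the block and a GC offset it was 316 (94 higher, 222 lower), with 58 listed genes, 215 shared with PBS and 160 with IgG. With the block on the BSA samples alone it was 1126 (499 higher, 627 lower, 9.42% of the genes tested), with 142 listed genes. The cause of this larger number was not tested. In the settings with only the compared groups, each contrast was fitted to its own groups. With the block there, 138 calls were shared with PBS and 132 with IgG. The interaction against IgG, fitted to the 4 groups it compares, then gave 6 genes.

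Leaving out 1 BSA sample gave 66 to 88 calls, 7 to 11 higher and 58 to 77 lower, with 22 to 28 listed genes; the lowest were 66 without TRIM21 sample 10, 67 without TRIM21 sample 14 and 67 without WT sample 14. Without the TRIM21 PBS sample numbered 11, which lies outside the comparison, 138 genes passed, 15 higher and 123 lower, 35 of them listed. Over all omissions the calls shared with PBS ran from 60 to 94 and with IgG from 57 to 101, both interactions stayed at 0, and Trim21 ran from 6.92 to 7.09. Of 39 named called genes besides Trim21, 28 passed in every alternative in which they were tested. The other 11 (Alk, Cd80, Epha7, Ercc6l2, Lum, Mfap4, Plxna4, Sfrp1, Spn-ps, Stra6 and Sulf1) missed the threshold in 52 of 594 values. No value changed sign, which the lack of overlap between the groups made nearly certain. Lum (0.0530) and Mfap4 (0.0855) missed with limma-voom, Sulf1 without a filter (0.0522) and with only the BSA samples (0.0933), and Alk (0.0534), Cd80 (0.0575) and Plxna4 (0.0524) with only the BSA samples. Plxna4 also missed with at least 10 counts in each BSA sample (0.0724). Counts limit the rest: below about 0.1 CPM a gene is not detectable in a library here, and the sizes of such changes depend on the value added to a count of 0.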

Other observations

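Genes called after BSA outside the named set included several of higher level, chosen here after their values were seen. Agtr2, an angiotensin receptor, was at 19, 23.9 and 20.5 CPM in the TRIM21 samples and at 86.4, 56.8 and 132 CPM in the WT samples (log2 fold change -2.12, SE 0.321, edgeR adjusted p = 0.00127), and Ace, the enzyme that makes its ligand, fell from 3.74 ± 1.52 to 0.36 ± 0.26 CPM (-3.30, adjusted p = 0.000571). Cd24a, a surface glycoprotein, was at 6.87, 14.5 and 10.6 CPM against 57.2, 47.8 and 77.7 CPM (-2.52, adjusted p = 0.000121). The LIM protein gene Fhl1 was at 20.9 ± 1.03 against 59.4 ± 17.9 CPM (-1.51, adjusted p = 0.00424).

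Further called genes, also chosen after their values were seen, were these. Mgp, an inhibitor of matrix calcification, fell from 26.4 ± 2.84 to 10.3 ± 2.47 CPM (-1.36, adjusted p = 0.000847), and Crtap, part of the complex that hydroxylates collagen prolines, from 108 ± 3.02 to 71.3 ± 8.12 CPM (-0.60, adjusted p = 0.00241). Cthrc1, a secreted protein with collagen repeats, fell from 129 ± 8.96 to 87.5 ± 1.07 CPM (-0.56, adjusted p = 0.0343). Among regulators, the transcription factor gene Gata6 was at 0.273 ± 0.175 against 1.85 ± 0.132 CPM (-2.70, adjusted p = 0.000136), the ubiquitin-like modifier gene Sumo3 at 1.11 ± 0.129 against 4.03 ± 0.627 CPM (-1.84, adjusted p = 2.53e-05), and the necroptosis kinase gene Ripk3 at 7.24 ± 1.24 against 11.5 ± 0.947 CPM (-0.67, adjusted p = 0.0325).

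Some rises missed the threshold without the replicate block and passed with it. One was Il33, an alarmin of fibroblasts and epithelia, at 42.7 ± 21.1 against 16.3 ± 2.77 CPM (adjusted p = 0.0323 with the block, 0.189 without, and 0.0307 without it on the BSA samples alone). Cxadr, a junction protein that adenoviruses use as a receptor, had 12, 5 and 3 counts in the TRIM21 samples and none in the WT samples, at least 2.09-fold higher against the floor of 3 counts per library (adjusted p = 0.0206 with the block, 0.238 without, 0.0393 by DESeq2 and 0.022 by limma-voom).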
